A study of Homo sapiens with 4 samples.

Results

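Integrins and laminins were followed in SKOV3, an established cell line from a human ovarian carcinoma, after treatment with rhSTIP1. The genes were those whose platform symbol is an integrin subunit (ITGA or ITGB followed by its code) or a laminin chain (LAMA, LAMB or LAMC followed by 1 digit). They came to 35 of the 19775 genes that had a probe set with exactly 1 symbol: 18 integrin alpha subunits, 7 integrin beta subunits and 10 laminin chains. ITGB6 was left out because its 4 probe sets also carry the symbol of another gene. Of the 35 genes 26 were bright enough to be tested, with a mean signal over the 4 arrays of at least 69.4, the median of all probe sets, and 9 were not. The series holds 4 Affymetrix arrays of SKOV3 RNA, 2 from control cells without rhSTIP1 and 2 from cells that received it. The treatment, rhSTIP1, is taken here to be recombinant human STIP1, a cochaperone of HSP70 and HSP90 that cells also secrete. Neither its dose nor the time of treatment is given in the sources used here. Nothing in the labels says that arrays of 1 group are separate cultures, and a p-value therefore covers the spread between these 4 samples alone, which can be technical.

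Integrins are heterodimeric receptors in which 1 alpha and 1 beta subunit together bind extracellular matrix or a counter-receptor on another cell, and link it to the actin cytoskeleton or, for ITGA6 with ITGB4, to keratin filaments. Laminins are cross-shaped trimers of an alpha, a beta and a gamma chain that form the sheet of the basement membrane and are themselves bound by integrins. In ovarian carcinoma these receptors are known for the attachment of tumour cells to the mesothelial lining of the peritoneum and its matrix. Arrays measure transcripts and do not show how much receptor was on the cell surface or whether it was active.

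Of 11 markers of SKOV3 and epithelial cells 10 were bright enough to be tested, as were 12296 of all 19775 genes. The keratins KRT7, KRT8 and KRT18, the adhesion molecule EPCAM, the receptor ERBB2 and the transcription factor PAX8 had signals of at least 4538 on every array. WT1 was dim, between 37.3 and 118, and CDH1 varied from 299 to 2110 between arrays. MUC16 was below the level for testing. None of the 6 leukocyte markers measured reached that level, and their summed signal lay between 145.6 and 297.2 on the 4 arrays. Of the 4 platelet markers 1 (GP1BA) was tested, of the 5 endothelial markers 1 (PECAM1) and of the 5 fibroblast markers 3. Median signals of all probe sets were 66.0 and 79.2 in the controls and 69.0 on both rhSTIP1 arrays. The signal at the 3′ end of ACTB exceeded that at the 5′ end 8.79-fold on rhSTIP1 array 2 and between 2.45-fold and 2.74-fold on the other 3 arrays. The same ratio for GAPDH was 1.315 on rhSTIP1 array 2 and between 0.987 and 1.165 on the other arrays. A high ratio can mark degraded or incompletely copied RNA. The part of RNA quality in the values of that array was not tested.

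None of the 26 tested integrins and laminins, each read from its brightest probe set, passed the test between rhSTIP1 and control, before or after adjustment. Outside these 26, ITGAX, which was below the level for testing, was lower on both rhSTIP1 arrays with an unadjusted p = 0.0351 (adjusted p = 0.999, limma without the filter). A further probe set of ITGB5 was higher on both arrays with an unadjusted p = 0.00373 (adjusted p = 1, limma over all probe sets). Log2 fold changes of the 26 tested genes, on the log2(signal + 16) scale, ran from −0.64 (ITGB3) to 0.38 (LAMB2) with a median of −0.04, against a median of 0.02 over all 12296 genes tested. There were 10 genes above 0 and 16 below, against 6539 above and 5757 below over all genes tested. The median size of the fold change, with its sign left off, was 0.19 on the log2 scale for these genes and 0.17 for all genes. For comparison, the 2 control arrays differed from each other by a median of 0.25 over the 26 genes and 0.28 over all genes. For 17 of the 26 that gap was wider than the difference between the groups. Single arrays spread more than means of 2 arrays, so this count would be high without any effect. Its share over all genes was not counted. None of the 26 passed limma's test after Benjamini-Hochberg adjustment over all genes (smallest adjusted p = 0.999), where 0 of 12296 genes passed and the share called was 0.0%. At an unadjusted p under 0.05 there were also 0 of 26, against 3.68% of all genes, and the smallest unadjusted p was 0.162 for LAMB2. The groups differed by at least 1.5-fold with no overlap of their arrays for 0 of the 26 genes, where 5.69% of all genes did so. Without overlap at any size there were 6 of 26 genes (23.1%), against 28.9% of all genes. These were LAMB2, LAMA5 and ITGA2, higher on both rhSTIP1 arrays (3 of 26, against 14.0% of all genes), and ITGA5, ITGA10 and ITGAM, lower on both (3 of 26, against 14.9%). RNA from whole cultures cannot tell fewer expressing cells from less RNA per cell.

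**Figure D1:**
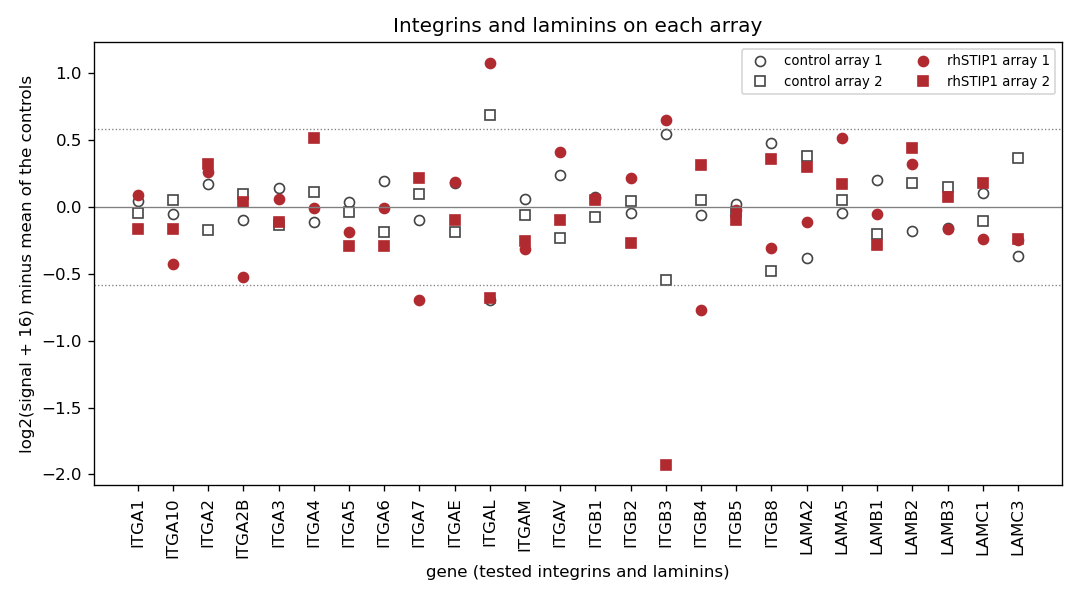
Each column is 1 of the 26 tested genes, and the y axis gives log2(signal + 16) on each array minus the mean of that gene's 2 controls, with open symbols for controls, filled symbols for rhSTIP1 and dotted lines at 1.5-fold. Open and filled symbols mix for 20 genes, and the farthest points belong to ITGB3 and ITGAL, whose 2 arrays of a group also lie far apart.

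A test that no gene passes leaves a range of changes that these arrays cannot tell from 0, and that range differed between genes. The 95% interval of the fold change lay inside 2-fold in both directions for 17 of the 26 genes (65.4%), against 69.3% of all genes, and inside 1.5-fold for 5 of them, against 8.22% of all genes. The narrowest interval was that of ITGB1, from −0.30 to 0.42 on the log2 scale. ITGA3, ITGB5, LAMB3 and LAMC1 were the other 4 genes inside 1.5-fold. These intervals are those of the brightest probe sets. Intervals of dimmer probe sets reached −1.03 for ITGB1, 1.74 for ITGB5 and −0.87 for LAMC1. At the other end, ITGB3 had an interval from −2.53 to 1.25 and ITGAL one from −1.44 to 1.84, so that for each of these dim genes both a rise and a fall of 2-fold lay within the interval.

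**Figure D2:**
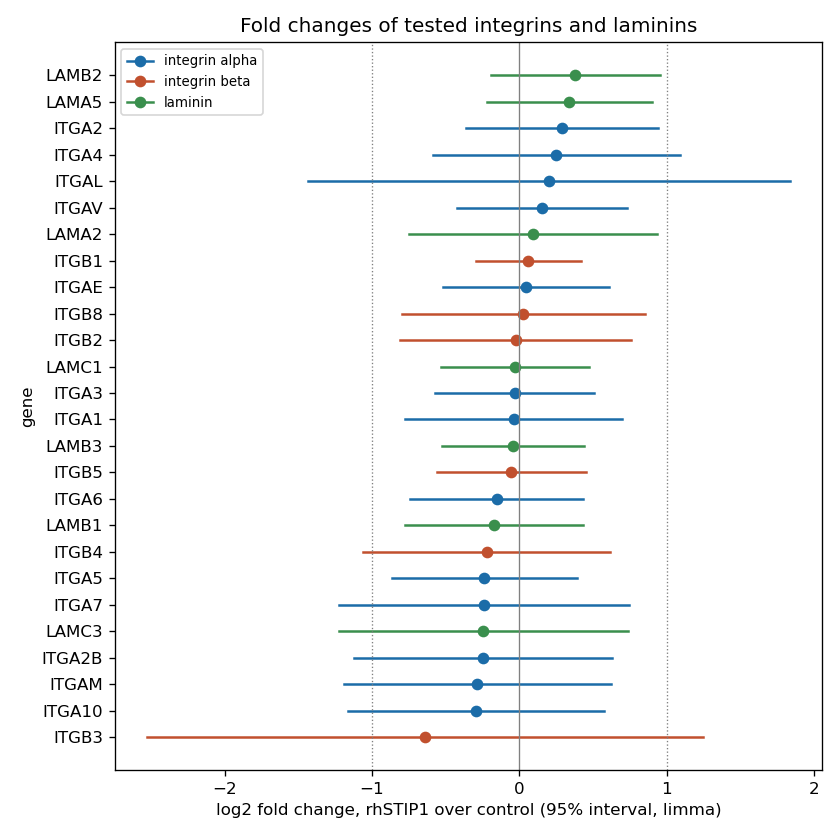
Points are log2 fold changes of the 26 tested genes, rhSTIP1 over control, with 95% intervals from limma and colours for alpha subunits, beta subunits and laminins. Every interval includes 0, from −0.64 for ITGB3 at the bottom to 0.38 for LAMB2 at the top, and 17 lie between the dotted lines at 2-fold.

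ITGB1, the beta subunit shared by most matrix-binding integrins, was at 20039 and 18117 in control cells against 19938 and 19813 in treated cells. Both rhSTIP1 arrays lay between the controls, and the log2 fold change was 0.06 ± 0.15 (SE, n = 2 arrays per group). ITGAV, the alpha subunit that pairs with ITGB1, ITGB3, ITGB5, ITGB6 or ITGB8 to bind fibronectin, vitronectin and latent TGF-beta, had 10846 and 7830 in control cells against 12228 and 8609 in treated cells. The arrays of its groups overlapped, with a log2 fold change of 0.15 ± 0.25. ITGA5, which forms the main fibronectin receptor with ITGB1, was at 284 and 268 in control cells against 241 and 223 in treated cells. Both rhSTIP1 arrays were lower than either control, by 1.18-fold on average, and the log2 fold change of −0.24 ± 0.27 did not differ from 0 beyond its error (unadjusted p = 0.404, limma). The remaining partners of ITGAV differed in how well they were measured. ITGB5, a vitronectin-binding beta subunit, had a log2 fold change of −0.05 ± 0.22 with signals between 2360 and 2569 on all 4 arrays. ITGB8, a beta subunit that binds latent TGF-beta, had 9077 and 4654 in control cells against 5259 and 8340 in treated cells. Its controls were 0.96 apart on the log2 scale and its rhSTIP1 arrays 0.66, while the group means differed by only 0.03. ITGB3 had 165 and 68.8 in control cells against 178 and 16.5 in treated cells, so that 1 array of each group was high. Without rhSTIP1 array 1 its log2 fold change was −1.93, and without rhSTIP1 array 2, the one with the high ACTB ratio, it was 0.65. ITGA2B, the alpha subunit that joins ITGB3 on platelets, had −0.25 ± 0.38 with overlapping arrays. Its dimmer probe sets, all below the level for testing, went the other way, at 0.90, 0.48 and 0.78 on the log2 scale. The summed signal of the 4 platelet markers was 130 and 212 in control cells against 152 and 187 in treated cells.

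Laminin receptors also had overlapping groups in their brightest probe sets. ITGA6, which binds laminin with ITGB1 or ITGB4, had 2473 and 1894 in control cells against 2152 and 1761 in treated cells, a log2 fold change of −0.15 ± 0.25. ITGB4, the subunit that anchors hemidesmosomes to keratin filaments, had 1114 and 1201 in control cells against 675 and 1445 in treated cells. One rhSTIP1 array lay below both controls and the other above both, and the log2 fold change was −0.22 ± 0.36. Without rhSTIP1 array 2 it was −0.76 (unadjusted p = 0.0372 and adjusted p = 0.999, limma), and without rhSTIP1 array 1 it was 0.32. ITGA3, whose dimer with ITGB1 binds the laminins of epithelial basement membranes, gave signals from 2270 to 2744 on the 4 arrays and a log2 fold change of −0.03 ± 0.23. ITGA7, the laminin receptor best known from muscle, was dim, at 103 and 120 in control cells against 62.3 and 131 in treated cells, with −0.24 ± 0.42.

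Among the collagen receptors, all of which pair with ITGB1, ITGA2 had 274 and 212 in control cells against 292 and 305 in treated cells. Both rhSTIP1 arrays were higher, by 1.22-fold on average, but the difference of 0.29 ± 0.28 on the log2 scale was about the size of its error (unadjusted p = 0.329, limma). It was 0.12 without control array 2 and 0.46 without control array 1. A second, dimmer probe set of ITGA2 gave 76.0 and 52.6 against 96.6 and 92.7, also without overlap and with a log2 fold change of 0.48 ± 0.39. ITGA1 was between 132 and 161 on all arrays, with −0.04 ± 0.32. ITGA10, known from cartilage, had 92.6 and 101 in control cells against 67.9 and 84.7 in treated cells, a log2 fold change of −0.29 ± 0.37, or −0.16 without rhSTIP1 array 1. The fourth collagen-binding alpha subunit, ITGA11, was too dim to be tested.

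Most integrins of leukocytes gave signals near or below the level for testing, and no leukocyte marker reached it. ITGB2, the beta subunit common to the leukocyte receptors, gave signals between 118 and 172 and a log2 fold change of −0.03 ± 0.34. ITGAM, its partner on myeloid cells, was just above the level for testing, at 84.0 and 76.4 in control cells against 61.2 and 64.6 in treated cells, and had −0.28 ± 0.39. ITGAL, the partner on lymphocytes, had 29.8 and 104 against 141 and 30.2, so that the arrays of each group disagreed. ITGA4, which binds fibronectin and VCAM1, had 99.8 and 119 in control cells against 108 and 163 in treated cells, a log2 fold change of 0.25 ± 0.36. ITGAE, known as the receptor for E-cadherin on lymphocytes within epithelia, was far above the level for testing, with 3478 and 2698 in control cells against 3500 and 2869 in treated cells. Its log2 fold change was 0.05 ± 0.24. In the RefSeq gene table the gene of the kinase HASPIN lies within ITGAE, and what that adds to the signal of the ITGAE probe set was not tested.

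The 9 genes below the level for testing were ITGA8, ITGA9, ITGA11, ITGAD, ITGAX, ITGB7, LAMA1, LAMA4 and LAMB4. Their brightest probe sets gave signals from 1.81 to 120 on single arrays, where MAS5 values vary widely. ITGAX, a partner of ITGB2 on dendritic cells and macrophages, had 61.7 and 120 in control cells against 31.2 and 26.3 in treated cells. Its other probe set gave 27.0 and 36.4 against 4.63 and 5.44, so that the arrays did not overlap for either probe set and both were lower with rhSTIP1. The 2 controls of the brightest probe set were 0.81 apart on the log2 scale. When all genes were fitted without the filter, ITGAX had a log2 fold change of −1.20 ± 0.45 (unadjusted p = 0.0351 and adjusted p = 0.999, limma). In that fit 8 of the 9 genes had an unadjusted p above 0.05. ITGAD also had no overlap but was higher with rhSTIP1, at 0.38 ± 0.37. Without the filter 2087 of all 19775 genes, ITGAX among them, were separated by at least 1.5-fold. Other probe sets below the level for testing also lacked overlap, in both directions. A dimmer one of ITGA2B had 13.9 and 23.1 in control cells against 46.0 and 50.0 in treated cells. A dimmer one of ITGAM had 31.6 and 32.3 against 15.0 and 9.80.

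Laminin chains included the 2 genes with the smallest p among the tested integrins and laminins. LAMB2, a beta chain of mature basement membranes, had 1099.5 and 1415 in control cells against 1560 and 1700 in treated cells. Both rhSTIP1 arrays were above both controls, with a log2 fold change of 0.38 ± 0.25, or 1.30-fold, and a 95% interval from −0.19 to 0.95. LAMA5, the alpha chain most widespread in epithelial basement membranes, went from 1650 and 1770 to 2442 and 1924, again without overlap, at 0.34 ± 0.24 or 1.27-fold. Neither passed limma's test (unadjusted p = 0.162 for LAMB2 and 0.195 for LAMA5, adjusted p = 0.999 for both). The size of both differences depended on single arrays. LAMB2 was at 0.20 without control array 1 and 0.56 without control array 2, and LAMA5 at 0.17 without rhSTIP1 array 1 and 0.51 without rhSTIP1 array 2. LAMB1, the beta chain that otherwise takes the place of LAMB2, had 911 and 688 in control cells against 761 and 647 in treated cells, a log2 fold change of −0.17 ± 0.26. LAMC1, the gamma chain that both beta chains join, had 8903 and 7717 in control cells against 7019 and 9384 in treated cells, at −0.03 ± 0.22. LAMB3, a chain of the laminin that anchors epithelia at hemidesmosomes, gave signals from 7093 to 8812 and −0.04 ± 0.21. LAMA2, known from muscle and nerve, had 141 and 250 in control cells against 173 and 235 in treated cells, at 0.09 ± 0.36, and LAMC3 had −0.24 ± 0.42. Of the 7 laminin chains tested 3 were above 0 and 4 below.

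The series title names a pathway read as that of SMAD1/5, the transcription factors that BMP receptors activate, so the stretch around the transcription start is shown for the 4 genes with the smallest p among the 6 whose arrays did not overlap. Each runs 5′ to 3′ from 250 bases before the start to 20 bases after it, from RefSeq on GRCh38.p14, which had such a sequence for 24 of the 35 genes. Capitals mark matches on either strand to GGCGCC, a GC-rich sequence that SMAD proteins can bind, to TGANTCA, the site of AP-1, and to GGGCGG, the GC box. No matches overlapped. LAMB2 lies on the minus strand at chr3:49133031-49133300, LAMA5 on the minus strand at chr20:62367293-62367562, ITGA2 on the plus strand at chr5:52989102-52989371 and ITGA5 on the minus strand at chr12:54419247-54419516.
LAMB2: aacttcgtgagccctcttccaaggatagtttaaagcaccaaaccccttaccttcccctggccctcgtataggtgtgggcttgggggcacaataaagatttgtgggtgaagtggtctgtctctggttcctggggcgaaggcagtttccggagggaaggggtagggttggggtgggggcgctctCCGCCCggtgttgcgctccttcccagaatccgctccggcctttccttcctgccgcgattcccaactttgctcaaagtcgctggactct
LAMA5: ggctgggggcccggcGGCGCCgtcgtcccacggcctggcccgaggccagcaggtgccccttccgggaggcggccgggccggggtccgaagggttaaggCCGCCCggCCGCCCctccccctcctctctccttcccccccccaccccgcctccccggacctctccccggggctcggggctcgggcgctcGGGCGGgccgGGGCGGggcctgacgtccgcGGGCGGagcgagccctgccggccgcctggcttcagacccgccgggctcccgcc
ITGA2: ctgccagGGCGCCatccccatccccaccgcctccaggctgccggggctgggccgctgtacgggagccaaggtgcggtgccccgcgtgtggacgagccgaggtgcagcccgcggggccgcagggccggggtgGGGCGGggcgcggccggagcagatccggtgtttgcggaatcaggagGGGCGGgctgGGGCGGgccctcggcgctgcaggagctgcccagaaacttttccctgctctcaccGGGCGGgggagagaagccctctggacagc
ITGA5: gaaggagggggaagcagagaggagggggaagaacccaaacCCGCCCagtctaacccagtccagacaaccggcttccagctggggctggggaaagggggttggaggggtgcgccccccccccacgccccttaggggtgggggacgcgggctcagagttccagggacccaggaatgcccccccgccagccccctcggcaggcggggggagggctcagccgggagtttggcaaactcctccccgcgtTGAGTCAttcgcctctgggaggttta
GGCGCC was present 1 time each in LAMA5 and ITGA2, which were higher on the rhSTIP1 arrays, and was not among the letters of LAMB2, also higher, or of ITGA5, which was lower. Over all 35116 promoter entries 17.4% held it in the same window, as did 7 of the 31 entries of integrins and laminins. TGANTCA occurred only in ITGA5 among the 4, across the transcription start, in 7.12% of all entries and in 2 of the 31. GGGCGG was in all 4, with 5 matches in LAMA5, 4 in ITGA2 and 1 each in LAMB2 and ITGA5. It was in 43.7% of all entries and in 17 of the 31. A match describes the letters and shows no binding.

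Because 25 of the 35 genes had more than 1 probe set, 95 in all, the comparison was repeated with every probe set as its own row. Of the 44 probe sets bright enough, 15 did not overlap between the groups (34.1%, against 28.2% of all probe sets), 2 did so by at least 1.5-fold (background 6.42%) and 1 had an unadjusted p under 0.05 (background 3.22%). None passed after adjustment, nor did any of the 27307 probe sets (0.0%). Of the 11 genes with at least 2 such probe sets, 5 had fold changes of 1 sign throughout and 6 did not, namely ITGB1, ITGB2, ITGB3, ITGB5, ITGB8 and LAMA2. The widest disagreement was in ITGB5. Its second brightest probe set had 214 and 248 in control cells against 473 and 560 in treated cells, with no overlap, a log2 fold change of 1.11 ± 0.27 or 2.16-fold, and an unadjusted p of 0.00373 (adjusted p = 1, limma). The brightest probe set of ITGB5 gave −0.05, and the 2 others gave 0.29 ± 0.29 and 0.18 ± 0.52 with overlapping arrays. In the array maker's naming the suffix x, which this probe set carries, marks probes that can match other transcripts, and whether they do so here was not tested.

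A second probe set of ITGA6 was the other one past 1.5-fold without overlap. It had 531 and 394 in control cells against 366 and 244 in treated cells, a log2 fold change of −0.59 ± 0.31, where the brighter one gave −0.15. A second probe set of ITGB4 was also past 1.5-fold but with overlapping arrays, at 133 and 217 in control cells against 149 and 73.4 in treated cells (−0.62 ± 0.42), as was the brightest one of ITGB3. For ITGB1 the next brightest probe sets gave −0.09 ± 0.19 and −0.40 ± 0.27. The latter had 4646 and 4589 in the controls, 4446 on rhSTIP1 array 1 and 2740 on rhSTIP1 array 2, so that its lower mean came mostly from the array with the high ACTB ratio. Both tested probe sets of LAMB1 and of LAMC1 were below 0, from −0.03 to −0.20.

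**Figure D3:**
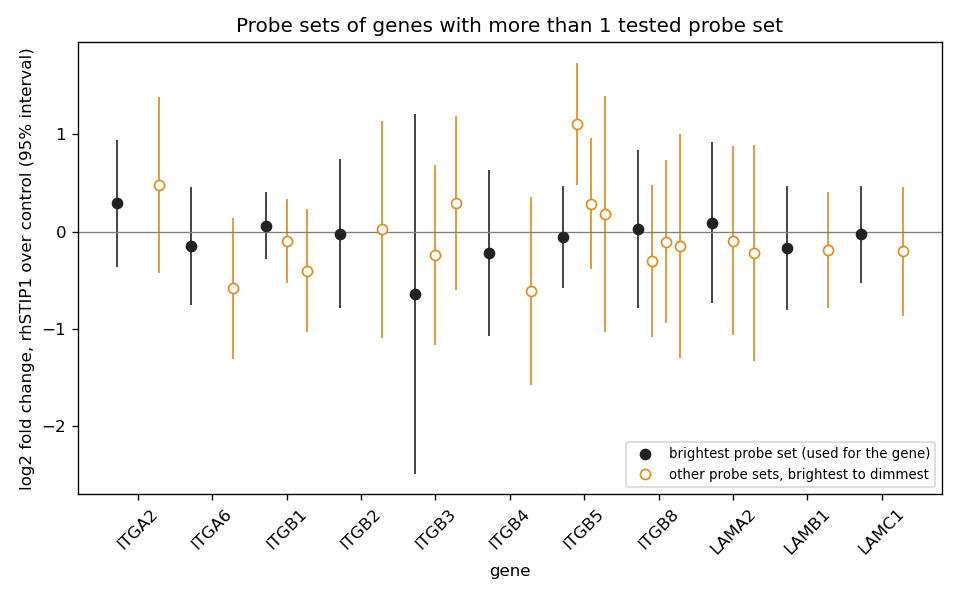
The y axis gives the log2 fold change with its 95% interval for each tested probe set of the 11 genes that have more than 1, filled for the brightest and open for the others. A single interval, that of an ITGB5 probe set at 1.11, does not reach 0.

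Other genes of cell adhesion were taken from 5 lists written from knowledge of the pathway, with 76 of 85 symbols measured and 67 tested. None of the 67 passed after adjustment over all genes, 1 had an unadjusted p under 0.05 (background 3.68%), and 2 differed by at least 1.5-fold without overlap (background 5.69%). Of the 22 tested adaptors and kinases of focal adhesions, 15 were above 0 and 7 below, with a median log2 fold change of 0.07. NEDD9, a scaffold of the CAS family, was the 1 gene of this focal adhesion list separated by 1.5-fold, at 113 and 103 in control cells against 128 and 319 in treated cells (0.82 ± 0.44). Array 1 of rhSTIP1 lay just above the controls and array 2, the one with the high ACTB ratio, far above them. ZYX, the adhesion protein zyxin, had 0.23 ± 0.23 and FERMT1, a kindlin that activates integrins, 0.27 ± 0.25. ACTN4 had 0.33 ± 0.30 with overlapping arrays.

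Among 9 regulators and binding proteins of integrin tails the median was −0.00044, with 4 above 0 and 5 below. ITGB1BP1, which binds the tail of ITGB1 and holds the receptor inactive, had 2879 and 2487 in control cells against 3792 and 3335 in treated cells. The arrays did not overlap, with 0.41 ± 0.22 and an unadjusted p of 0.106 (limma). ITGB3BP was lower on both rhSTIP1 arrays at −0.29 ± 0.24, and RAP1A had 0.27 ± 0.22 with overlapping arrays. The 9 hemidesmosome and tetraspanin partners had a median of 0.05, and PLEC, the plectin that links ITGB4 to keratins, was higher on both arrays at 0.36 ± 0.27. SLC3A2, a heavy chain of amino acid transporters that also binds beta subunits, had −0.41 ± 0.30 with overlapping arrays.

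The 11 other basement membrane components and laminin receptors had a median of 0.09. NTN4, a netrin that binds laminin gamma chains, had the largest fold change of them, with 2155 and 6143 in control cells against 5746 and 8452 in treated cells. The higher control exceeded the lower rhSTIP1 array, and the log2 fold change of 0.93 ± 0.46 had an unadjusted p of 0.0772 (limma). The collagen IV chains COL4A1 and COL4A2, the main collagen network of the basement membrane, gave −0.03 ± 0.21 and 0.09 ± 0.18. Ligands outside the laminins were the most variable list, from −0.97 (TNC) to 1.48 (CCN2) around a median of 0.07 over 16 genes. TNC, the matrix protein tenascin-C, was at 114 and 149 in control cells against 76.9 and 44.9 in treated cells, a log2 fold change of −0.97 ± 0.40. It was the 1 gene of the lists past the unadjusted threshold (unadjusted p = 0.0457 and adjusted p = 0.999, limma). Fibronectin, FN1, had 0.09 ± 0.20, and SPP1 (osteopontin, a ligand of ITGAV dimers) had −0.05 ± 0.19. The smallest unadjusted p in this list after TNC belonged to CCN2, whose controls were 1096 and 257 against 719 and 3196 with rhSTIP1, so that its groups overlapped. The value of 3196 came from the array with the high ACTB ratio.

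**Figure D4:**
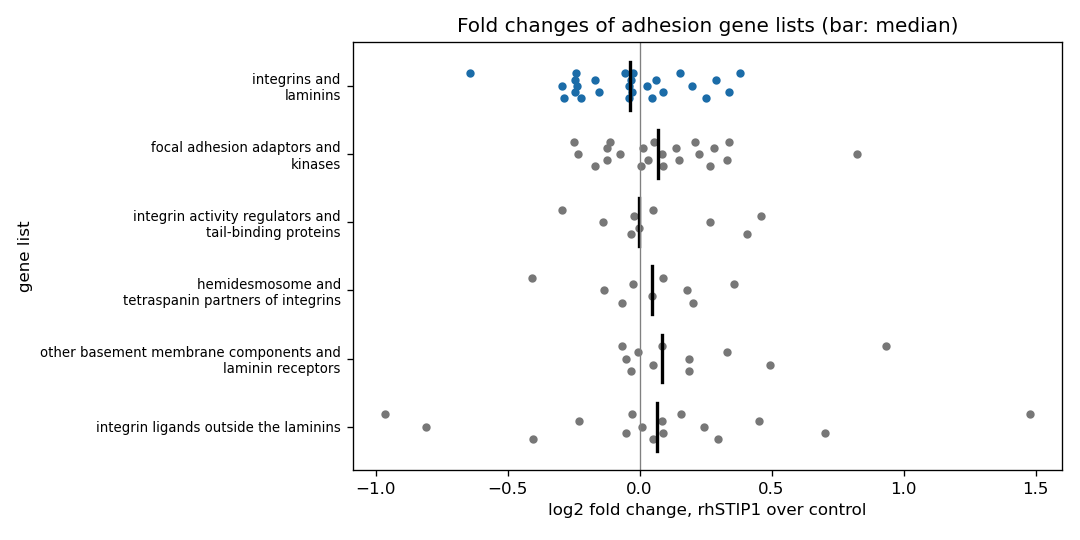
Points are log2 fold changes of tested genes, rhSTIP1 over control, in the integrins and laminins (top row) and 5 lists of other adhesion genes, with a bar at each median. The medians lie between −0.04 and 0.09, and the points farthest from 0 are CCN2 at 1.48, TNC at −0.97 and NTN4 at 0.93.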

How the data were processed

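The deposited values were linear probe set intensities from 4 arrays. The submitters' processing notes name MAS5 and, as the software, Affymetrix Expression Console 1.1, and the mean of each array after trimming 2% of probe sets at each end was 500.1. No detection calls were used, and 2 arrays a group limit the precision. Of 54675 probe sets, 41091 had 1 symbol, 1801 several and 11721 none, besides 62 controls. A gene was represented by its brightest probe set with 1 symbol and tested where that mean signal reached 69.4, the median over probe sets. Groups were compared by limma 3.58.1 in R 4.3.3 (lmFit, trended eBayes) with two-sided tests of log2(signal + 16), adjusted over 12296 genes by Benjamini-Hochberg. A fold change on this scale understates the change of dim genes. An exact permutation test of 2 arrays against 2 cannot give a two-sided p below 0.333. The fit was tested on simulated data. Adhesion and marker lists were described by counts and medians only.

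The genes and lists were chosen with earlier results of these data known. The rule for naming gave full values to genes separated by at least 1.5-fold or at an unadjusted p under 0.05 (none qualified). It also gave them to ITGB1, ITGAV, ITGA5, ITGA6, ITGB4, LAMB1 and LAMC1. In each adhesion list the rule allowed the genes with the smallest p, of which not all were given. Other genes given with their values were chosen after these were seen, as were ZYX, FERMT1, COL4A1, COL4A2, FN1 and SPP1 and the 3 promoter motifs. Promoters were shown for genes whose arrays did not overlap at any size, because none was separated by 1.5-fold. Alternatives covered the pseudocount, filter, scaling, probe set choice, replicate number as a block, eBayes settings and leaving out each array.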

Additional observations from a re-analysis of the deposited data

How the results depend on the processing

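No integrin or laminin passed the adjusted test under any of the 14 alternatives. Leaving out 1 array gave between 1 and 4 of the 26 genes separated by 1.5-fold. The highest number came without rhSTIP1 array 2 (ITGA7, ITGAL, ITGB3 and ITGB4), where 1424 of all 12296 genes were separated too. With no filter 1 of 35 genes, ITGAX, was at an unadjusted p under 0.05 and separated, where 2087 of all 19775 genes were separated. Over all genes the number called was 1 with a filter at the 70th percentile, 2 with robust eBayes, 247 with the replicate number as a block, and 0 to 6 with 1 array left out. The labels do not say that a number marks a shared culture, and the deviations of same-numbered arrays correlated at 0.36 over genes. With the block, 0 of the 26 genes passed (smallest adjusted p = 0.631, limma). Genes separated by 1.5-fold numbered 2087 with no filter, 424 with the 70th percentile filter and 1062 to 1979 with 1 array left out. Those in the adhesion lists numbered 4, 0 and 6 to 13 under the same settings and 1 with the mean of all probe sets. A lone array is assumed to vary like the other group.

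The sign held under every alternative for 6 genes (ITGA2, ITGA5, ITGA10, ITGAM, LAMA5 and LAMB2), whose arrays did not overlap, so that leaving out an array could not turn it. Their ranges with 1 array left out were ITGA2 0.12 to 0.46, ITGA5 −0.29 to −0.19, ITGA10 −0.42 to −0.16, ITGAM −0.34 to −0.23, LAMA5 0.17 to 0.51 and LAMB2 0.20 to 0.56. The sign turned for the other 20. With the mean of all probe sets the log2 fold change was 0.48 for ITGA2B, −0.081 for ITGA4, −0.24 for ITGB1, 0.13 for ITGB4, 0.38 for ITGB5, −0.19 for ITGB8 and −0.013 for LAMA2. Quantile normalization gave −0.032 for ITGB1 and −0.015 for ITGB8, and median centring gave 0.0032 for ITGB2. The cause was not tested. Ranges with 1 array left out were ITGA1 −0.17 to 0.088, ITGA2B −0.53 to 0.034, ITGA3 −0.17 to 0.10, ITGA4 −0.011 to 0.52, ITGA6 −0.34 to 0.039, ITGA7 −0.70 to 0.21, ITGAE −0.13 to 0.23, ITGAL −0.68 to 1.08, ITGAV −0.10 to 0.41, ITGB1 −0.012 to 0.13, ITGB2 −0.27 to 0.22, ITGB3 −1.93 to 0.65, ITGB4 −0.76 to 0.32, ITGB8 −0.45 to 0.51, LAMA2 −0.29 to 0.47, LAMB1 −0.37 to 0.029, LAMB3 −0.19 to 0.11, LAMC1 −0.24 to 0.18, LAMC3 −0.61 to 0.13.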
